A study of Mus musculus with 6 samples.

Results

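The immunity-related GTPases described here are 7 mouse genes of the p47 family, Irgm1, Irgm2, Igtp, Iigp1, Ifi47, Tgtp1 and Tgtp2. They were chosen by gene symbol, and each symbol named 1 of the 54446 entries in the deposited expression table. RNA had been sequenced from bone marrow-derived macrophages of C57BL/6 mice aged 6 weeks, cells grown from marrow in culture. The 3 groups of 2 samples each were cells given PBS, a buffer, and cells given 5 µM or 10 µM KN93, a small-molecule inhibitor of calcium/calmodulin-dependent protein kinase II. No allele or transgene is named for any group, and no group is labelled as given an interferon or a pathogen. How long KN93 was present is not given, nor whether replicates were grown from different mice or dishes. All p-values are thus set against the spread between these 6 samples alone, and that spread may be technical.

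Of the 7 genes, 6 lie on chromosome 11 in build GRCm38, and Iigp1 lies on chromosome 18. One stretch holds Irgm1 (ENSMUSG00000046879, chr11:48861968-48871683, minus strand), Tgtp1 (ENSMUSG00000078922, chr11:48985327-48994172, minus strand), Tgtp2 (ENSMUSG00000078921, chr11:49057194-49064206, minus strand) and Ifi47 (ENSMUSG00000078920, chr11:49076587-49096974, plus strand). The other holds Igtp (ENSMUSG00000078853, chr11:58199556-58207591) and Irgm2 (ENSMUSG00000069874, chr11:58199618-58222782), both on the plus strand. All 7 are protein-coding genes in GENCODE M21.

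Immunity-related GTPases are proteins that mouse cells make in response to interferons, mainly interferon gamma. The effector members, Iigp1 (also called Irga6), Tgtp1 and Tgtp2 (Irgb6) and Ifi47 (Irgd), bind the membrane of vacuoles that hold parasites or bacteria such as Toxoplasma gondii and Chlamydia trachomatis, and help to break it open. The regulatory members, Irgm1, Irgm2 and Igtp (Irgm3), sit on the cell's own membranes and keep the effectors in an inactive state until an infection. In macrophages, Irgm1 is also known for its part in defence against mycobacteria and in autophagy.

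Promoter sequences are shown because letters that resemble binding motifs of interferon-activated factors stand at like positions in several members. RefSeq promoters of build GRCm38.p6, 250 bases before to 50 bases after a gene's start, were at hand for 6 of the 7 genes, all but Iigp1. Capitals mark every match on either strand to GAAANNGAAA, the core of the interferon-stimulated response element, or to TTCNNNGAA, the core of the gamma-activated site. The Irgm1 stretch is kept to 30 bases because it lies inside an exon of a longer Irgm1 transcript in GENCODE M21. The other stretches are 100 bases long, lie upstream of the RefSeq start and overlap no GENCODE exon. Each is written 5′ to 3′ on the strand of its gene.
Irgm1, chr11:48871428-48871457, minus strand: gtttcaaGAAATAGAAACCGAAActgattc
Irgm2, chr11:58214868-58214967, plus strand: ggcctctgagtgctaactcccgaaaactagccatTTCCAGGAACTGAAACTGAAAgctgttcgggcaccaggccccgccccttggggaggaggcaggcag
Igtp, chr11:58199456-58199555, plus strand: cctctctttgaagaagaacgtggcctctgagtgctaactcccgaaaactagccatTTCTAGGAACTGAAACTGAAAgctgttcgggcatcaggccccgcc
Tgtp1, chr11:48992269-48992368, minus strand: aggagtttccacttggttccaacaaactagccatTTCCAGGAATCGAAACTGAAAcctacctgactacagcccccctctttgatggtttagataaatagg
Tgtp2, chr11:49064228-49064327, minus strand: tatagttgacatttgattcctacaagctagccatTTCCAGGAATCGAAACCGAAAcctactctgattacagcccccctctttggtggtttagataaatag

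GAAANNGAAA was found in 5 of the 6 member promoters, against 1131 of 32851 RefSeq mouse promoters of the same length (3.44%). TTCNNNGAA was found in 4 of the 6, Irgm2, Igtp, Tgtp1 and Tgtp2, against 2726 of all promoters (8.3%). Irgm1 held GAAANNGAAA in 2 overlapping copies and no TTCNNNGAA, and the Ifi47 window held neither set of letters. In the 4 promoters with both, the motifs stood 2 bases apart as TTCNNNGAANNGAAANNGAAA, a joined form that was put together after these sequences were seen. It stood in 5 promoters of all 32851 (0.0152%), those of Irgm2, Igtp, Tgtp1, Tgtp2 and Gm12185, another entry of the family. Lined up on it without gaps, the printed stretches of Igtp and Irgm2 were identical at 77 of 79 bases and those of Tgtp1 and Tgtp2 at 64 of 100, so these matches are not independent of each other. A match is a description of the letters and not of binding.

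Expression is given in FPKM, fragments per kilobase of exon scaled to the library total, so levels can be compared between genes. The totals implied by the FPKM steps were 24.2 to 28.4 units of 1000000 fragments per sample, and 11964 to 12175 entries reached 1 FPKM in a sample. The macrophage genes Adgre1, Csf1r, Cd68, Lyz2, Itgam, Fcgr1, Mertk and Cd14 were all expressed, and their summed level was 18739 and 18210 FPKM with PBS, 14771 and 14294 FPKM at 5 µM, and 8277 and 9125 FPKM at 10 µM. Lyz2 makes up most of that sum, and the 8 genes did not move alike. Against PBS, limma called 1 higher (Cd68) and 6 lower at 10 µM, and 2 higher (Cd68 and Mertk) and 5 lower at 5 µM, while Fcgr1 was not called at 10 µM (adjusted p = 0.474) or at 5 µM (adjusted p = 0.458). Of all genes tested, 28.5% were called higher and 22% lower at 10 µM, and 15.1% higher and 15.4% lower at 5 µM. These shares also stand beside the other marker calls against PBS below. Summed over 8 stromal markers, the level was 1816 and 1758 FPKM with PBS, 579.6 and 482.3 FPKM at 5 µM, and 342.4 and 320.7 FPKM at 10 µM. Sums over 8 neutrophil markers were 114.1 and 114.2 FPKM with PBS, 37.0 and 42.7 FPKM at 5 µM, and 5.22 and 7.31 FPKM at 10 µM. The 9 T and NK cell markers summed to 3.91 and 4.49 FPKM with PBS, 4.19 and 4.48 FPKM at 5 µM, and 2.08 and 2.11 FPKM at 10 µM. All but Cd4 stayed below 1 FPKM in all 6 samples, Cd3d was at 0 in all 6, and Cd4 fell at 10 µM against PBS (limma, adjusted p = 0.000825). The 7 B cell and plasmacytoid markers summed to 14.3 and 14.6 FPKM with PBS, 8.06 and 8.22 FPKM at 5 µM, and 5.39 and 5.51 FPKM at 10 µM, and the 2 that could be tested, Cd79b and Tcf4, fell at both doses against PBS. The 7 dendritic cell markers summed to 9.93 and 10.96 FPKM with PBS, 13.3 and 14.3 FPKM at 5 µM, and 8.47 and 10.2 FPKM at 10 µM. The 1 that could be tested, Itgax, rose at 5 µM against PBS (limma, adjusted p = 0.0382) and was lower at 10 µM than at 5 µM (adjusted p = 0.0218). In bulk RNA, fewer cells of a type and less RNA per cell cannot be told apart, and the part of these shifts in the results below was not tested.

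Levels of the 7 genes ran in the same order in all 3 groups, with Ifi47 highest, then Irgm1, Igtp, Irgm2, Iigp1, Tgtp2 and Tgtp1. Igtp and Irgm2 overlapped between replicates with PBS and at 5 µM, and did not overlap at 10 µM. Every other pair of neighbours in the order was separate in each group. Already with PBS, then, the macrophages held these transcripts at levels between 13.4 and 62.5 FPKM, Tgtp1 apart.

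**Figure D1:**
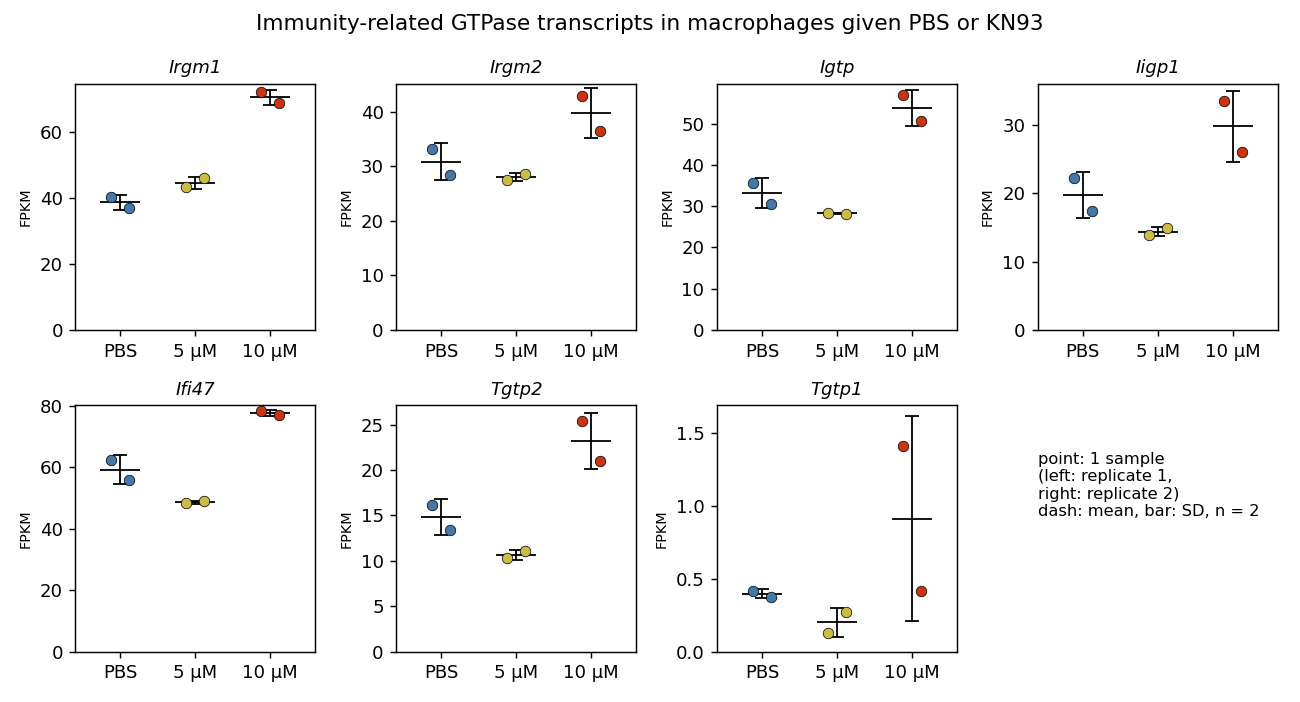
FPKM of the 7 immunity-related GTPase genes in each of the 6 samples, 1 panel a gene with its own vertical scale. Points are samples, horizontal dashes are means and error bars are the SD of 2 samples. Both 10 µM samples stand above both PBS samples in each of the 7 panels, and above both 5 µM samples. For Tgtp1 the lower 10 µM sample (0.4177 FPKM) is nearly level with the higher PBS sample (0.4174 FPKM).

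At 10 µM KN93, all 6 members that could be tested were higher than with PBS, by 1.29 to 1.82 times in mean FPKM, and in each of the 6 both treated samples stood above both PBS samples. Irgm1 rose most on the log2(FPKM + 1) scale, followed by Igtp, Tgtp2, Iigp1, Ifi47 and Irgm2. The test was limma across the 12722 genes that reached 1 FPKM in at least 2 samples, and a gene was called at a Benjamini-Hochberg adjusted p under 0.05. Of all genes tested, 28.5% were called higher and 22% lower in this comparison, and 44.2% had both treated samples above both PBS samples. With median-of-ratios scaling the split over all genes turned, at 2955 higher and 3219 lower, against 3631 higher and 2796 lower on the FPKM as deposited. The median log2 change was 0.59 over the 6 members and 0.05 over all genes tested. Tgtp1 reached 1 FPKM in 1 sample only and was not tested.

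Among the regulatory members, Irgm1 measured 72.2 and 68.8 FPKM at 10 µM, against 40.2 and 37.1 FPKM with PBS. Its log2 change was 0.85 ± 0.06 (standard error; limma, adjusted p = 0.000224). The lowest treated sample was well clear of the highest PBS sample. Igtp measured 57.0 and 50.8 FPKM at 10 µM, against 35.7 and 30.5 FPKM with PBS, a log2 change of 0.69 ± 0.09 (limma, adjusted p = 0.00188). Irgm2, whose gene overlaps Igtp on the same strand, measured 43.0 and 36.5 FPKM at 10 µM, against 33.2 and 28.4 FPKM with PBS. Its log2 change was 0.36 ± 0.10 (limma, adjusted p = 0.0322), and the gap between the lower treated sample and the higher PBS sample was smaller than the gap between the 2 treated samples. The Irgm2 call depended on single samples: its adjusted p was 0.139 without PBS replicate 2, 0.125 without 10 µM replicate 1, and 0.0549 and 0.0548 without 5 µM replicate 1 and replicate 2. It also missed the threshold with no filter on low values (0.0927), with median-of-ratios scaling (0.0639), with quantile normalization (0.0522) and with only the 4 samples compared (0.0548).

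Among the effector members, Ifi47 measured 78.3 and 77.0 FPKM at 10 µM, against 62.5 and 55.9 FPKM with PBS, a log2 change of 0.39 ± 0.06 (limma, adjusted p = 0.00403). Tgtp2 measured 25.4 and 21.04 FPKM at 10 µM, against 16.2 and 13.4 FPKM with PBS, a log2 change of 0.62 ± 0.12 (limma, adjusted p = 0.0079). Both genes were separate between the groups, with the replicates of Ifi47 closer together than those of Tgtp2. Iigp1 measured 33.4 and 26.1 FPKM at 10 µM, against 22.2 and 17.4 FPKM with PBS, a log2 change of 0.56 ± 0.15 (limma, adjusted p = 0.0244). The ratio between its replicates was larger than that of the other tested members in these groups, and its adjusted p was 0.101 without PBS replicate 2 and 0.0959 without 10 µM replicate 1. With no filter on low values it was 0.0797. Leaving out 1 or the other of those samples left 4 of the 6 members called, Irgm2 and Iigp1 being the ones lost.

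At 5 µM KN93, Ifi47 and Tgtp2 fell against PBS. The other 4 tested members did not pass the test, and 1 of those 4, Irgm1, had a positive change. Over all genes tested, 15.1% were called higher and 15.4% lower at 5 µM. The median log2 change of the 6 members was -0.25, against 0.01 over all genes tested.

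Ifi47 measured 48.3 and 49.0 FPKM at 5 µM, against 62.5 and 55.9 FPKM with PBS, a log2 change of -0.28 ± 0.06 (limma, adjusted p = 0.0235). Tgtp2 measured 10.3 and 11.1 FPKM at 5 µM, against 16.2 and 13.4 FPKM with PBS, a log2 change of -0.43 ± 0.12 (limma, adjusted p = 0.0433). Both 5 µM samples of each gene were below both PBS samples. Neither call held when PBS replicate 1 or 1 of the 5 µM replicates was left out, where the adjusted p was 0.0896 to 0.103 for Ifi47 and 0.107 to 0.176 for Tgtp2. With no filter on low values it was 0.0614 for Ifi47 and 0.127 for Tgtp2, and Tgtp2 also missed with quantile normalization (0.0546) and without the intensity trend (0.0555).

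Iigp1 measured 13.9 and 14.9 FPKM at 5 µM, against 22.2 and 17.4 FPKM with PBS, a log2 change of -0.43 with a 95% interval of -0.80 to -0.05 (limma, adjusted p = 0.0837). Igtp measured 28.4 and 28.1 FPKM at 5 µM, against 35.7 and 30.5 FPKM with PBS, with an interval of -0.44 to 0.01 (limma, adjusted p = 0.125). Both were below PBS in both samples without passing the test, as part of the 4 members whose 5 µM samples were both lower. A separation of that kind was seen in 33% of all genes tested. Irgm2 measured 27.6 and 28.6 FPKM at 5 µM, against 33.2 and 28.4 FPKM with PBS, so its groups overlapped, and its interval was -0.38 to 0.13 (limma, adjusted p = 0.398). Irgm1 was the member whose 5 µM samples were both higher, a separation seen in 37% of all genes. It measured 43.3 and 45.9 FPKM at 5 µM, against 40.2 and 37.1 FPKM with PBS, with an interval of 0.05 to 0.35 (limma, adjusted p = 0.0542).

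**Figure D2:**
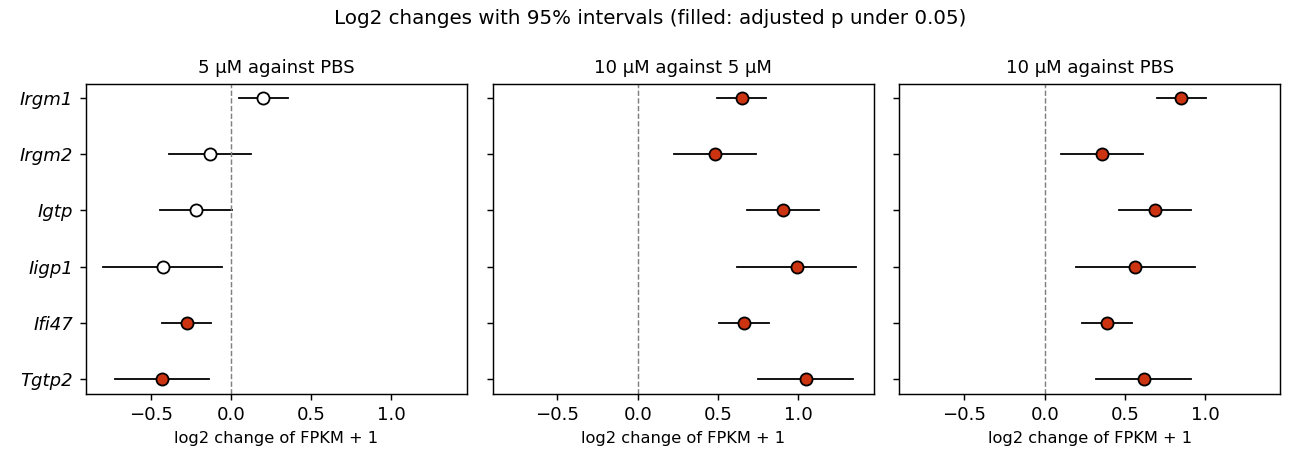
Log2 change on the log2(FPKM + 1) scale of the 6 tested members in each comparison, with 95% intervals from limma. All 6 points are above 0 for 10 µM against PBS and for 10 µM against 5 µM, while 5 of the 6 are below 0 for 5 µM against PBS.

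Between the 2 doses, all 6 tested members were higher at 10 µM than at 5 µM, a comparison that shares its samples with both of those above. Of all genes tested, 11.4% were called higher and 8.5% lower, and 37.7% had both 10 µM samples above both 5 µM samples, as all 6 members did. The median log2 difference was 0.78 over the members and 0.04 over all genes. Tgtp2 differed most, with 25.4 and 21.04 FPKM at 10 µM, against 10.3 and 11.1 FPKM at 5 µM, a log2 difference of 1.05 ± 0.12 (limma, adjusted p = 0.00471). Iigp1 followed with 0.99 ± 0.15 (adjusted p = 0.0103) and Igtp with 0.90 ± 0.09 (adjusted p = 0.00327). The differences of Ifi47 and Irgm1 were alike, at 0.66 ± 0.06 (adjusted p = 0.0028) and 0.65 ± 0.06 (adjusted p = 0.00281). Irgm2 had the smallest, at 0.48 ± 0.10 (adjusted p = 0.0278). Its adjusted p was 0.114 and 0.103 without 5 µM replicate 1 and replicate 2, 0.0916 without 10 µM replicate 1 and 0.0943 with no filter. That of Iigp1 was 0.0568 and 0.0515 without 5 µM replicate 1 and replicate 2.

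The change over the step between the doses was set against the change over the step between PBS and 5 µM in the same limma fit. This difference of steps was positive in all 6 tested members and was called in 4, Igtp, Iigp1, Ifi47 and Tgtp2, against 2.88% of all genes called in that direction. It was 1.47 ± 0.21 on the log2 scale for Tgtp2 (adjusted p = 0.0284), 1.42 ± 0.26 for Iigp1 (adjusted p = 0.0433), 1.12 ± 0.16 for Igtp (adjusted p = 0.0284) and 0.94 ± 0.11 for Ifi47 (adjusted p = 0.0222). Irgm2, at 0.61 ± 0.18 (adjusted p = 0.108), and Irgm1, at 0.44 ± 0.11 (adjusted p = 0.0721), did not pass. The limma test called 0 of the 6 members with no filter, or when PBS replicate 1, 1 of the 5 µM replicates or 10 µM replicate 1 was left out, though 4 to 6 members had an unadjusted p under 0.05 in each of these fits. Voom on the recovered fragments, with all samples, called 6.

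Ifi47 and Tgtp2 met 3 criteria together, lower at 5 µM than with PBS, higher at 10 µM than at 5 µM and higher at 10 µM than with PBS. In all, 15 genes of the 12722 tested met them (0.118%). Gbp7, of the guanylate-binding protein family, was also among the 15 (limma, adjusted p = 0.0367, 0.00489 and 0.0103 in that order). The Ifi47 and Tgtp2 calls at 5 µM, on which this rests, are the ones lost when PBS replicate 1 or a 5 µM replicate was left out.

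Tgtp1 and Tgtp2 encode near-identical proteins, and their split in the deposited values is uncertain. Of the 100-base windows in Tgtp1 transcripts, 70.3% also occur in Tgtp2 transcripts, and 76.8% of the Tgtp2 windows occur in Tgtp1 transcripts. Tgtp1 measured 0.417 and 0.374 FPKM with PBS, 0.130 and 0.270 FPKM at 5 µM, and 1.41 and 0.418 FPKM at 10 µM. These values rest on few fragments, 36 and 34 in the PBS samples, 11 and 24 in the 5 µM samples, and 109 and 38 in the 10 µM samples. The higher of the 10 µM samples was 3.37 times the other, and the lower one was close to the PBS samples. The sum of both genes was 16.6 and 13.8 FPKM with PBS, 10.4 and 11.3 FPKM at 5 µM, and 26.8 and 21.5 FPKM at 10 µM. Tested as 1 entry in limma, the summed pair was no longer called at 5 µM against PBS (adjusted p = 0.0508).

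Other shared sequence was small. Igtp and Irgm2 share 162 exon bases on the same strand, 8.01% of the Igtp exons and 4.39% of the Irgm2 exons. Ifi47 shares 4.49% of its exon bases with Olfr56 on its own strand and 4.29% with Gm12188 on the opposite strand, and Tgtp1 shares 6.96% with Gm12185. Whether counting used the strand is not given in the sources used here.

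As a whole, the 7 genes summed to 210.4 and 183.1 FPKM with PBS, 171.9 and 177.9 FPKM at 5 µM, and 310.7 and 280.6 FPKM at 10 µM. With 2 samples against 2, the exact two-sided permutation test cannot give a p below 0.333, and each of the 3 comparisons of the sum reached that value. Irgm1 made up 19.1% and 20.2% of the sum in the PBS samples, 25.2% and 25.8% in the 5 µM samples, and 23.2% and 24.5% in the 10 µM samples. Its share was thus higher in all 4 KN93 samples than in both PBS samples, also with an exact p of 0.333 at each dose, the smallest possible.

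Replicates of a group also differed in a shared direction. In both PBS and 10 µM, replicate 1 was above replicate 2 for all 6 tested members, by 1.08 to 1.27 times with PBS and 1.02 to 1.28 times at 10 µM. At 5 µM the ratios lay between 0.931 and 1.01, and Igtp alone was higher in replicate 1. The numbers only name the samples, so they tie no sample of 1 group to a sample of another.

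**Figure D3:**
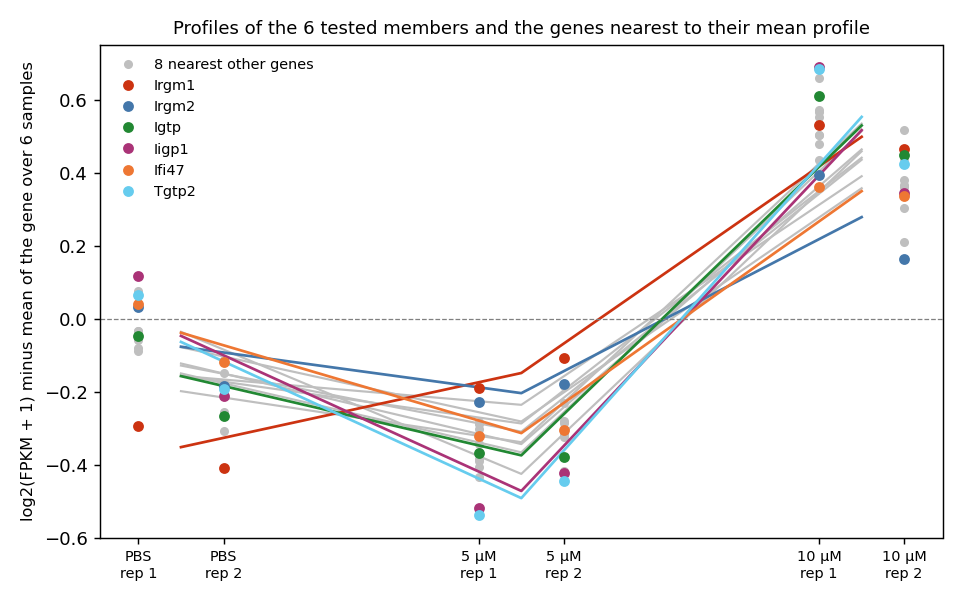
Log2(FPKM + 1) of the 6 tested members, and of the 8 nearest other genes in grey, minus each gene's mean over the 6 samples. Points are samples and lines join the means of the groups; Irgm1 has its lowest mean with PBS, and the other members have theirs at 5 µM.

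The 6 profiles were averaged, and 7217 tested genes with a mean of at least 5 FPKM were ranked by root mean square log2 distance to that average over the 6 samples. The members themselves lay at 0.0569 (Igtp), 0.0928 (Ifi47), 0.114 (Iigp1), 0.116 (Tgtp2), 0.130 (Irgm2) and 0.178 (Irgm1). Each member is part of the average, which draws its own distance down, so these distances cannot be set beside those of other genes. The 8 nearest genes outside the family, predicted genes left aside, were Ifi44 (0.0162), Ifi209 (0.0420), Ifi208 (0.0540), Mndal (0.0694), Ddx60 (0.0720), Gbp7 (0.0747), Mx2 (0.0783) and Ifi203-ps (0.0884). Ifi44 measured 35.1 and 30.8 FPKM with PBS, 27.3 and 28.9 FPKM at 5 µM, and 53.7 and 46.4 FPKM at 10 µM. Gbp7, a guanylate-binding protein, measured 18.9 and 16.03 FPKM with PBS, 13.0 and 13.1 FPKM at 5 µM, and 27.1 and 23.0 FPKM at 10 µM. Both had their highest mean at 10 µM and their lowest at 5 µM, as most members did. They were picked for nearness to the members' average, so a like order follows from the choice. The fall of Ifi44 at 5 µM against PBS was not called (limma, adjusted p = 0.130).

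Among 10 further entries of the family, 8 could be tested. At 10 µM 6 of them rose against PBS, where 28.5% of all genes were called higher, with a median log2 change of 0.32. Of the 8, 3 were higher at 10 µM than at 5 µM, where the share over all genes was 11.4%. At 5 µM 1 rose against PBS, Irgq, against 15.1% of all genes. Gm12250, also listed as Irgb10, a known effector against Chlamydia and cytosolic bacteria, measured 64.7 and 59.5 FPKM at 10 µM, against 43.1 and 38.3 FPKM with PBS (log2 change 0.60 ± 0.07, limma adjusted p = 0.00141). At 5 µM it measured 39.2 and 39.7 FPKM, within the range of the PBS samples. GENCODE M21 types the entry as a processed pseudogene, while RefSeq names it as a gene. Gm4951 measured 15.5 and 13.4 FPKM with PBS, 13.2 and 15.3 FPKM at 5 µM, and 25.5 and 22.1 FPKM at 10 µM (log2 change at 10 µM against PBS 0.68 ± 0.11, adjusted p = 0.00396). Gm12185 and Irgq also rose at 10 µM, Gm12185 by 0.50 and Irgq by 0.34 on the log2 scale (limma, adjusted p = 0.00859 and 0.00615). Gm12185 reached 1 FPKM only in the 10 µM samples. It thus entered the test, and the count of 6, through the group where it was high. Irgq was the called entry at 5 µM, where it averaged 5.20 ± 0.0972 FPKM, against 4.22 ± 0.141 FPKM with PBS (SD, n = 2; limma, adjusted p = 0.0307). Irgq is a divergent member not known as an effector at pathogen vacuoles.

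Transcripts of the interferon genes listed were scarce in all groups. Of 13 genes for interferons and for cytokines that lead to interferon gamma, 11 stayed below 1 FPKM in every sample, and Ifng, Ifna4, Ifna5, Ifna6, Ifnl2 and Ifnl3 were listed at 0 in all 6. Ifnb1, which encodes interferon beta, measured 0.0991 and 0.141 FPKM with PBS, 0.203 and 0.0481 FPKM at 5 µM, and 0.110 and 0.517 FPKM at 10 µM. These ranges overlapped, and the gene was not tested. The 2 genes that could be tested were Il18 and Il27. Il18 fell to 7.80 ± 0.258 FPKM at 10 µM, against 13.3 ± 0.509 FPKM with PBS (SD, n = 2; limma, adjusted p = 0.00029). Il27 rose to 2.38 ± 0.152 FPKM at 10 µM, against 1.82 ± 0.109 FPKM with PBS (SD, n = 2; limma, adjusted p = 0.0327), but was not called with median-of-ratios scaling or with voom.

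Of 20 tested receptors and signalling genes of the interferon pathways, 5 rose and 9 fell at 10 µM against PBS, where 28.5% of all genes were called higher and 22% lower. Their median log2 change was -0.15. With median-of-ratios scaling, 3 were called higher and 11 lower. At 5 µM limma called 0 higher and 7 lower, against 15.1% and 15.4% of all genes. An unadjusted p under 0.05 gave 1 higher and 12 lower there, and voom on the recovered fragments gave 0 higher and 12 lower. Over all genes, voom called 1784 higher and 2511 lower at 5 µM against PBS. The share of all genes with an unadjusted p under 0.05 is not given here. Ifngr1, the ligand-binding chain of the interferon gamma receptor, measured 24.0 and 24.4 FPKM at 10 µM, against 69.3 and 66.7 FPKM with PBS, a log2 change of -1.45 ± 0.04 (limma, adjusted p = 2.2e-05). At 5 µM it measured 36.03 and 36.8 FPKM (log2 change -0.88, adjusted p = 0.000287). The 3 groups were fully separate. Ifngr2, the second chain, averaged 41.7 ± 1.23 FPKM with PBS, 35.3 ± 0.795 FPKM at 5 µM and 38.4 ± 1.07 FPKM at 10 µM (SD, n = 2). It fell at 5 µM (limma, adjusted p = 0.0175) and did not pass at 10 µM (adjusted p = 0.0936). Ifnar1, a chain of the type I interferon receptor, averaged 42.2 ± 0.542 FPKM with PBS, 29.0 ± 0.338 FPKM at 5 µM and 22.3 ± 0.549 FPKM at 10 µM (SD, n = 2). It fell against PBS at 5 µM (limma, adjusted p = 0.00105) and at 10 µM (adjusted p = 7.04e-05).

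Among the signalling genes, the kinase gene Jak1 rose at 10 µM, with 59.4 ± 2.52 FPKM, against 44.0 ± 0.652 FPKM with PBS (SD, n = 2; limma, adjusted p = 0.00113). Irf1, a transcription factor that drives interferon-inducible genes, averaged 35.99 ± 1.33 FPKM at 10 µM, against 32.8 ± 1.27 FPKM with PBS, and did not pass the test (adjusted p = 0.0957). Against 5 µM, where it averaged 29.7 ± 0.883 FPKM, it was higher at 10 µM (limma, adjusted p = 0.0228). Irf8, a transcription factor of the macrophage lineage, fell to 26.0 ± 1.37 FPKM at 10 µM, against 34.1 ± 1.53 FPKM with PBS (limma, adjusted p = 0.00313). Socs3, a feedback inhibitor of cytokine signalling, fell to 2.17 ± 0.190 FPKM at 10 µM, against 7.97 ± 1.31 FPKM with PBS (limma, adjusted p = 0.000244). Socs1, the feedback inhibitor of interferon gamma signalling, measured 1.22 and 0.848 FPKM at 10 µM, against 0.882 and 0.583 FPKM with PBS, and was not tested.

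Guanylate-binding proteins, a second family of interferon-inducible GTPases that act at the same vacuoles, rose in 8 of 9 tested genes at 10 µM against PBS, with a median log2 change of 1.49. The share of all genes called higher there was 28.5%. At 5 µM 2 rose and 2 fell, against 15.1% and 15.4% of all genes. Between the doses 8 were higher at 10 µM, against 11.4% of all genes. The difference of steps was called in 4 of the 9, against 2.88% of all genes called in that direction. Gbp2 averaged 41.2 ± 7.11 FPKM with PBS, 52.1 ± 0.830 FPKM at 5 µM and 153.7 ± 9.48 FPKM at 10 µM (SD, n = 2), a log2 change of 1.88 ± 0.12 at 10 µM against PBS (limma, adjusted p = 0.000137). Gbp3 rose by a like amount, 1.84 ± 0.09 (adjusted p = 7.04e-05). Gbp11 had a low level with PBS and rose, with 9.54 ± 1.67 FPKM at 10 µM, against 0.540 ± 0.0957 FPKM with PBS (adjusted p = 9.43e-05), and Gbp6 rose by 1.54 ± 0.08 (adjusted p = 9.56e-05). Gbp11 stayed below 1 FPKM in both PBS samples. It thus entered the test, and the count of 8, only through the KN93 samples, where it was high. Gbp6 and Gbp11 also rose at 5 µM (adjusted p = 0.00771 and 0.00363), unlike Gbp7, which fell there (log2 change -0.39 ± 0.10, adjusted p = 0.0367). At 10 µM, the changes of Gbp2, Gbp3, Gbp6 and Gbp11 were each larger than that of any of the 6 immunity-related GTPases tested. These 4 were named for having the smallest p of their list in this comparison. Gbp5 (1.49) and Gbp8 (0.92) also changed more than Irgm1 (0.85), while Gbp4 (0.60), Gbp7 (0.50) and Gbp9 (-0.08) changed less. Differences between genes were not themselves tested.

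**Figure D4:**
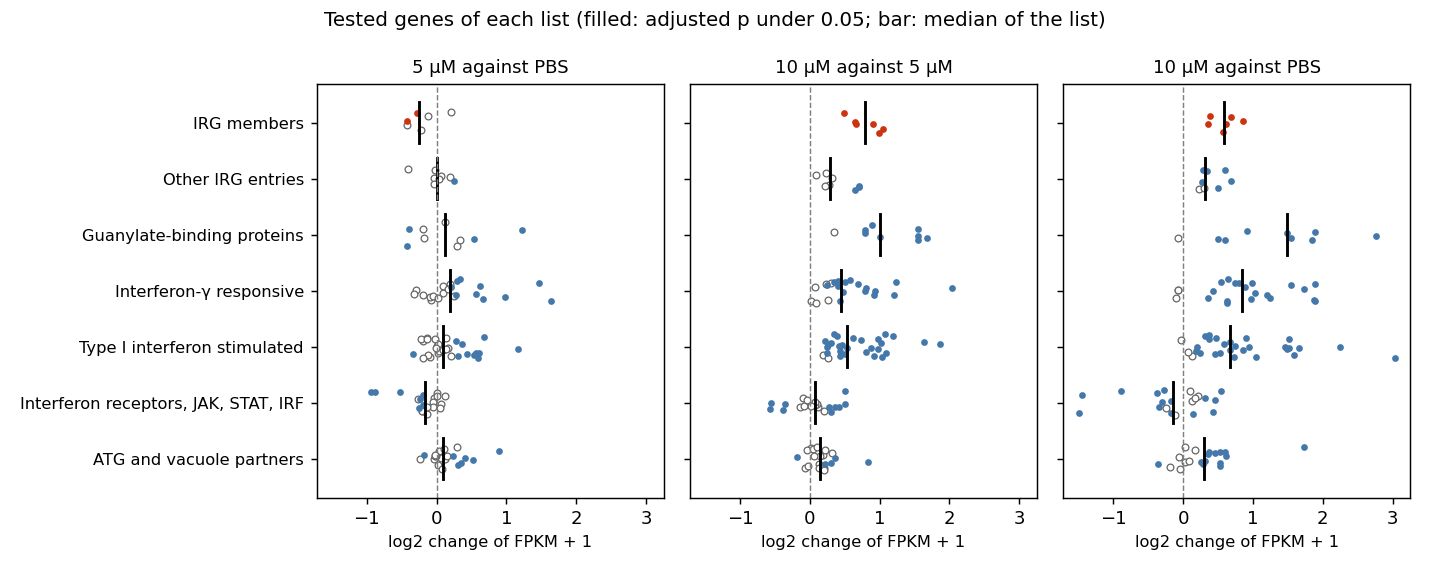
Log2 change on the log2(FPKM + 1) scale of every tested gene in the members and in the related gene lists, for each comparison. Each point is a gene and the short line is the median of its list; at 10 µM against PBS the median is 0.59 for the members, 1.49 for the guanylate-binding proteins and -0.15 for the receptors and signalling genes.

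Other genes known to respond to interferon gamma, 22 of them tested, rose in 19 cases at 10 µM against PBS, with a median log2 change of 0.84. Ciita and Cxcl9, counted among the 19, reached 1 FPKM only in the 10 µM samples. They thus entered the test through the group where they were high. The share of all genes called higher there was 28.5%. At 5 µM 10 rose, against 15.1% of all genes, with a median of 0.20. The class II histocompatibility gene H2-Aa averaged 22.6 ± 0.210 FPKM with PBS, 72.6 ± 2.87 FPKM at 5 µM and 86.5 ± 4.45 FPKM at 10 µM (SD, n = 2). Most of its change was therefore present at 5 µM, and its difference of steps was -1.39 ± 0.10 (limma, adjusted p = 0.012), opposite in sign to that of the 6 members. H2-Ab1, its partner chain, likewise had a difference of steps of -1.40 ± 0.12 (adjusted p = 0.0158). Most of the list went the other way, with a positive difference of steps in 17 of the 22 genes and a negative one in 5. The median over the list was 0.29, and limma called 1 gene higher and 2 lower. Over all 12722 genes tested, limma called 366 higher (2.88%) and 316 lower for the difference of steps. Cd274, which encodes PD-L1, averaged 48.5 ± 0.0742 FPKM with PBS, 96.3 ± 7.33 FPKM at 5 µM and 183.3 ± 17.6 FPKM at 10 µM. Against PBS it rose at 5 µM (limma, adjusted p = 0.00115) and at 10 µM (adjusted p = 5.24e-05). Slamf8 rose by 1.88 ± 0.12 at 10 µM (limma, adjusted p = 0.000148).

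Genes best known for their response to type I interferon rose in 26 of 29 tested at 10 µM against PBS, with a median log2 change of 0.66. The share of all genes called higher there was 28.5%. At 5 µM 10 rose and 1 fell, against 15.1% and 15.4% of all genes, with a median of 0.10. Between the doses 27 were higher at 10 µM, against 11.4% of all genes. The difference of steps was positive in 27 of the 29 and called in 6, against 2.88% of all genes called in that direction. Rsad2, which encodes the antiviral enzyme viperin, averaged 42.5 ± 6.32 FPKM with PBS, 96.1 ± 4.93 FPKM at 5 µM and 353.8 ± 32.5 FPKM at 10 µM, a log2 change of 3.03 ± 0.12 at 10 µM against PBS (limma, adjusted p = 3.78e-05). Usp18, a negative regulator of type I interferon signalling, rose by 1.58 ± 0.07 (adjusted p = 6.04e-05). Ifit1 and Ifit3, which block viral RNA translation and support antiviral signalling, rose by 1.49 ± 0.08 and 1.52 ± 0.09 (adjusted p = 9.72e-05 and 0.000112). These 4 genes also rose at 5 µM (adjusted p = 0.00186, 0.00425, 0.0403 and 0.00832).

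In the guanylate-binding, interferon gamma and type I lists and in the further entries of the family, limma called 0 genes lower at 10 µM against PBS. Voom on the recovered fragments also gave 0, and so did an unadjusted p under 0.05. Over all genes tested, limma called 22% lower in this comparison, and among the 20 receptors and signalling genes it called 9 lower.

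Loading of the effector GTPases onto vacuoles needs the autophagy conjugation proteins, and ubiquitin ligases and adaptors follow them there. Of 20 such genes tested, 12 rose and 1 fell at 10 µM against PBS, against 28.5% and 22% of all genes. Their median log2 change was 0.30. At 5 µM 6 rose and 1 fell, against 15.1% and 15.4% of all genes. Sqstm1, the adaptor p62, averaged 138.8 ± 7.27 FPKM with PBS, 259.5 ± 19.0 FPKM at 5 µM and 464.3 ± 8.95 FPKM at 10 µM (SD, n = 2). Its log2 change at 10 µM against PBS was 1.74 ± 0.07 (limma, adjusted p = 4.35e-05). Atg7 and Atg12, parts of the conjugation system, rose by 0.53 ± 0.04 and 0.61 ± 0.05 (adjusted p = 0.000383 and 0.000473). Atg7 averaged 17.0 ± 0.375 FPKM at 10 µM, against 16.8 ± 0.241 FPKM at 5 µM, a log2 difference of 0.02 ± 0.04 (limma, adjusted p = 0.812). The kinase gene Tbk1 rose by 0.45 ± 0.04 (adjusted p = 0.000639).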

How the data were processed

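The authors deposited FPKM per gene, 1 column for each of the 6 samples. Reads were aligned with HISAT2 to GRCm38, per the submitters' processing notes. Not given in the sources used here were the HISAT2 version, the counting tool, the annotation and the use of strand, and the prefix DXM of the column names is not explained.

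Entries were matched to GENCODE M21 (54409 of 54446, 99.93%). FPKM times exon length gave whole fragments within 0.1 for 98.8% to 99.0% of values under 20 fragments, which gave the depths. The 12722 genes that reached 1 FPKM in at least 2 samples were fitted as log2(FPKM + 1) in R 4.3.3 with limma 3.58.1 (eBayes with trend), all 6 samples in one fit with 3 residual degrees of freedom. The pseudocount of 1 understates changes of low genes. The two-sided p-values were adjusted by Benjamini-Hochberg over all genes tested. The step was tested on simulated data.

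The members and lists were chosen with earlier results of these data known. Named genes were all members, up to 4 tested genes per list with the smallest unadjusted p at 10 µM against PBS, Ifng, Ifnb1, Ifngr1, Ifngr2, Irf1, Irf8 and Socs1, and the 8 genes nearest in pattern. Apart from these, 1 gene that the rule names is not reported here. Alternatives were a pseudocount of 0.1, no filter, a filter of 5 FPKM, median-of-ratios scaling, quantile normalization, no trend, a replicate block, only the 2 groups compared, Tgtp1 and Tgtp2 summed, each sample left out, and, added after seeing the data, voom on the recovered fragments. No sample was left out of the results.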

Additional observations from a re-analysis of the deposited data

How the results depend on the processing

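None of the 6 tested members changed direction in any comparison under the alternatives run. Of the 6 members called at 10 µM against PBS, the alternatives other than leaving out a sample called 4 to 6 (4 with no filter), and leaving out a sample 4 to 6. For 10 µM against 5 µM they called 5 or 6, and 4 to 6 with a sample left out. At 5 µM against PBS, where 2 were called, limma called 0 with no filter (4 at an unadjusted p under 0.05), 1 with quantile normalization, 1 with no trend, 1 with Tgtp1 and Tgtp2 summed, and 0 to 2 with a sample left out (2 to 4 unadjusted), while voom called 3, Iigp1 added. With a filter of 5 FPKM Irgm1 was called higher at 5 µM (adjusted p = 0.0456). For the difference of steps, where 4 were called, limma called 0 with no filter (6 unadjusted), 0 to 3 with a sample left out, and voom 6. The cause was not tested.

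Counts over all genes moved as well. For 10 µM against PBS, 3631 higher and 2796 lower became 2955 higher and 3219 lower with median-of-ratios scaling. Those for 5 µM against PBS were 3881 (1919 higher, 1962 lower; 2140 higher and 1890 lower with quantile normalization), and 1897 to 3856 with a sample left out. Those for 10 µM against 5 µM were 2536 (1455 higher, 1081 lower), 1350 with no filter and 869 to 1922 with a sample left out, and median-of-ratios scaling turned the split to 1097 higher and 1317 lower (quantile normalization: 1236 and 1239). The difference of steps gave 682 (366 higher, 316 lower; 335 and 349 with median-of-ratios scaling, 345 and 411 with quantile normalization), against 45 with no filter, 1293 with voom and 0 to 239 with a sample left out. Fits that leave out a sample assume that the lone sample of its group varies as the others do.

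With the replicate number as a block, 6 members were called at 10 µM and 2 at 5 µM, each against PBS, 6 between the doses and 4 for the difference of steps, as without it, while the count over all genes for the difference of steps was 354. The numbers were given in accession order and pair no samples; deviations of same-numbered samples had correlations of -0.055, 0.0143 and 0.0373.

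With 2 samples a group the spread is poorly known. The 6 tested members rest on 798 to 11343 fragments in a sample. The 11 to 109 fragments of Tgtp1 limit that gene.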
